A study of Mus musculus with 20 samples.

Results

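The renin-angiotensin system was examined in kidney and bone marrow of oxaliplatin-treated mice through 9 of its genes, taken as the lines of both count tables whose symbol was Ren1, Agt, Ace, Enpep, Agtr1a, Agtr1b, Agtr2, Mas1 or Atp6ap2. Each table held 55486 genes, and these 9 are the members described here. All 9 had at least 1 count in kidney, and 8 of 9 had a count in bone marrow. In the count fit, 7 of the 9 passed the filter on low counts in kidney and 6 of the 9 in bone marrow, and the members that did not pass are given as raw counts.

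Renin, made by juxtaglomerular cells of the kidney, cuts angiotensinogen to angiotensin I. Angiotensin converting enzyme turns that peptide into angiotensin II, which raises blood pressure, constricts vessels and stimulates aldosterone release mainly through its type 1 receptors. Shorter peptides act through Mas1, generally with effects opposed to those of the type 1 receptors, and angiotensin II acting on the type 1 receptors of the kidney lowers renin in a feedback loop.

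The vehicle groups (5 kidney and 5 bone marrow libraries) came from C57BL/6 mice given 5% dextrose intraperitoneally for 8 weeks, and the oxaliplatin groups (5 and 5 libraries) came from mice given 10 mg/kg oxaliplatin, a DNA-damaging platinum drug, in the same 5% dextrose over the same time. Treatment began at 10 weeks of age in animals described as male and female. Marrow was spun out of tibia and femur. The study's methods give no account of how the kidney was sampled, and no source used here says whether a kidney and a marrow library of the same number came from the same mouse. RNA was sequenced in bulk, and the deposited values are raw counts of reads per gene.

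Total counts ranged from 24393007 to 30925430 in kidney and from 30660153 to 41140527 in bone marrow, so that 3 counts, taken as the floor of detection, stood for 0.0970 to 0.123 CPM (the usual depth-scaled count, here with TMM scaling) in kidney and for 0.0729 to 0.0978 CPM in marrow. Floors cover counting error only. Of the low counts from 1 to 10, between 71.1% and 75.1% were even in the kidney libraries and between 69.2% and 71.7% in the marrow libraries, so even counts outnumbered odd ones in every library and counts were not taken as independent molecules. Kidney markers (Umod, Slc34a1, Slc12a1, Slc12a3, Aqp2) were high in every kidney library, where of the 5 marrow markers Elane and Mpo were at or under the floor, while Cd79a reached 1.08 CPM, Ptprc ranged from 4.01 to 8.61 CPM and the red cell gene Hba-a1 from 17.4 to 257 CPM. Counts of Y-linked genes were present in all 20 libraries, although both sexes are described. Xist, the RNA of the inactive X chromosome, had 0 to 19 counts per kidney library and 28 to 100 per marrow library. The summed level of the 4 Y-linked genes examined was lowest in marrow oxaliplatin mouse 5, at 99.1 CPM.

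The promoters of Ren1, Agt and Ace are shown because these are the substrate and the enzymes of the cascade that moved in the comparisons that follow. The sequences are those of RefSeq for GRCm38.p6, taken from windows of 250 bases before the start of transcription, and 8 of the 9 members had an entry, Agtr1a having none. Capitals mark matches, on either strand, to the TATA box, written TATAAA (found in 12.4% of all 32851 windows of this kind), to the GC box, written GGGCGG (32.7%), and to TAATAAATCA, the HOX element known from the renin promoter, present in 18 of the 32851 windows (0.0548%). This element was read from the Ren1 window itself and added to the search after that sequence had been seen. In the Ren1 window (chr1:133350424-133350673, plus strand) the last 164 bases lie inside the longer gene model of GENCODE, and only the 20 bases around the HOX element (chr1:133350604-133350623) and the 16 around the TATA box (chr1:133350640-133350655) are printed. The Agt window (chr8:124569707-124569956) is on the minus strand, and the Ace stretch (chr11:105967698-105967944, plus strand) belongs to the upstream, somatic start.
Ren1 HOX element: tggggTAATAAATCAaagca
Ren1 TATA box: gtgtgTATAAAagaag
Agt: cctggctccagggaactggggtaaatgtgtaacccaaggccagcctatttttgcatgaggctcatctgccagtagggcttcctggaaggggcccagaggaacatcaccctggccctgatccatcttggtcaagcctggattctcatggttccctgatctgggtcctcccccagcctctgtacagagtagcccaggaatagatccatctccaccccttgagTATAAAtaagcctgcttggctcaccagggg
Ace: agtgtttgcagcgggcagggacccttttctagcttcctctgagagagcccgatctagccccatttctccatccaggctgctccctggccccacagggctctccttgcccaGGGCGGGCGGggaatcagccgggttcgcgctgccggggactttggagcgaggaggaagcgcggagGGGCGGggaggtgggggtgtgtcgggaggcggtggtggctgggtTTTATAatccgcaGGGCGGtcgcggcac

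The TATA box stood 29 bases before the RefSeq start in Ren1 and 30 bases before it in Agt, both on the sense strand. In Ace the same letters were on the opposite strand, beside 4 GC boxes of which 2 overlap. Also searched on both strands were TGACG (the core of a cyclic AMP element, in 17.8% of all windows), ACGTG (a hypoxia element core, in 16.6%), GCGTG (another hypoxia core, in 28.2%) and GTGGGAA (the RBPJ motif, in 5.42%), and these letters were not in the 3 windows. A match of letters is a description of the sequence only.

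In kidney, Ren1 rose and Ace fell with oxaliplatin, while the substrate gene Agt was slightly higher and the receptor genes were within or near the spread between mice. A member was called when edgeR's quasi-likelihood test gave an adjusted p under 0.05 with a change beyond 1.5-fold. By this rule 2 of the 7 members tested were called, 1 in each direction, where 11.5% of all 19293 genes tested were called (7.68% higher and 3.81% lower). The same 2 members had no overlap between the groups, as had 20.7% of all genes tested. With the fold left aside, 3 of 7 members passed the adjusted p, against 29.4% of all genes. The median log2 fold change was 0.13 over the 7 members and 0.02 over all genes tested.

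**Figure D1:**
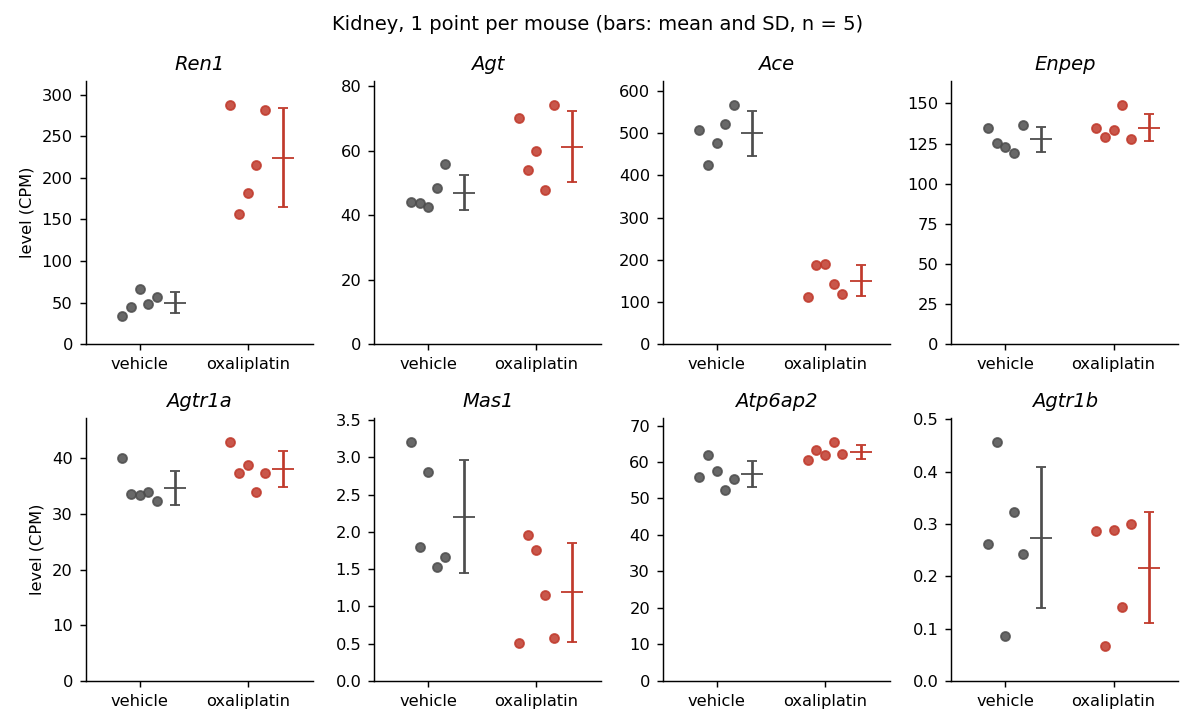
Level in CPM (vertical axis, from 0) of 8 members in each kidney library, with vehicle mice in grey and oxaliplatin mice in red, 1 point per mouse and bars for the mean and SD (n = 5); Agtr2, with at most 4 counts, is not drawn. The oxaliplatin points of Ren1 all lie above the vehicle points, from 156 CPM upward, those of Ace all lie below, from 190.2 CPM downward, and the other panels overlap.

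Ren1 (ENSMUSG00000070645, chromosome 1, 133350510 to 133360325 of GRCm38, plus strand) encodes renin, the protease that starts the cascade. In kidney of the 5 vehicle mice it measured 33.5, 44.2, 66.0, 48.8 and 56.9 CPM, and in the 5 oxaliplatin mice 288, 156, 181, 215 and 282 CPM. Every oxaliplatin mouse was above every vehicle mouse, and the lowest oxaliplatin value was over the highest vehicle value by more than the spread within the vehicle group. The means were 49.9 ± 12.3 CPM and 224 ± 58.9 CPM (SD, n = 5 each), a log2 fold change of 2.17 (SE 0.23, 95% interval 1.64 to 2.70), or 4.50-fold, with an adjusted p of 1.9e-04 in edgeR's quasi-likelihood test. Leaving out each mouse in turn gave log2 fold changes between 2.06 and 2.29, with adjusted p from 1.1e-04 to 9.3e-04 in edgeR.

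Genes of the vessel wall and the glomerulus moved with this rise. The 9 smooth muscle and pericyte markers had 6 called higher and 0 lower, and their summed level ranged from 169 to 197 CPM with vehicle and from 315 to 528 CPM with oxaliplatin. Among the 5 podocyte markers 4 were called higher, and among the 7 endothelial markers 2, with summed levels from 296 to 301 CPM against 435 to 529 CPM, and from 310 to 325 CPM against 381 to 532 CPM. The part of these shifts in the Ren1 result was not tested, and in bulk tissue more cells of a type and more RNA per cell cannot be told apart.

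Agt (ENSMUSG00000031980, chromosome 8, 124556534 to 124569706, minus strand) encodes angiotensinogen, the substrate of renin, made chiefly by the liver and also by proximal tubule and fat. Its kidney levels were 44.2, 43.9, 42.4, 48.5 and 56.0 CPM in the vehicle mice and 70.1, 54.1, 60.0, 47.7 and 74.2 CPM in the oxaliplatin mice. The groups overlapped, since oxaliplatin mouse 4 was below 2 of the vehicle mice. The log2 fold change was 0.38 (SE 0.11), or 1.30-fold, with an adjusted p of 0.0205 in edgeR, short of the 1.5-fold needed for a call. Without 1 mouse in turn the adjusted p in edgeR ranged from 0.00269 to 0.0527. Adipocyte markers were also higher in these kidneys, 5 of the 6 tested being called, and the summed level of all 7 was 20.3 to 42.2 CPM with vehicle and 61.7 to 178 CPM with oxaliplatin. Their part in the Agt value was not tested.

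Ace (ENSMUSG00000020681, chromosome 11, 105967945 to 105989964, plus strand) encodes the converting enzyme, found on endothelium and on the brush border of the proximal tubule. It was read at 507, 424, 477, 522 and 567 CPM in the vehicle kidneys and at 112, 188, 190.2, 144 and 120 CPM in the oxaliplatin kidneys. No oxaliplatin mouse came near the vehicle range. The mean went from 499.5 ± 53.2 CPM to 151 ± 37.0 CPM (SD, n = 5 each), a log2 fold change of -1.73 (SE 0.15, 95% interval -2.06 to -1.39), or 3.31-fold lower, with an adjusted p of 1.3e-05 in edgeR. The values without each mouse in turn lay between -1.82 and -1.63.

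Markers of the proximal tubule shifted in both directions beside Ace. Of the 10 examined, 3 were called lower and 0 higher: Slc22a12, a urate transporter (log2 fold change -1.1), Slc22a6, an organic anion transporter (-1.0), and Slc27a2, a fatty acid transporter (-0.80). At an adjusted p under 0.05 in edgeR, with the fold left aside, 5 were lower and 2 higher. The 2 that were higher were Slc5a12, a lactate transporter (0.42, edgeR adjusted p = 0.00701), and Cubn, the endocytic receptor cubilin (0.32, adjusted p = 0.00802). The summed level of the 10 ranged from 25292 to 29970 CPM with vehicle and from 19101 to 23111 CPM with oxaliplatin, without overlap, and the list's median log2 fold change was -0.16. The endothelial list, the other known site of Ace, moved up as given above. The part of these shifts in the fall of Ace was not tested.

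The order of the Ren1 and Ace RNA levels, taken per kilobase of exon, turned over between the groups. The counts are of RNA and do not measure the enzymes. Per kilobase of exon, the Ren1 level divided by the Ace level ran from 0.211 to 0.441 in the vehicle kidneys and from 2.64 to 8.18 in the oxaliplatin kidneys. The same ratio of Ren1 to Agt ran from 0.865 to 1.77 and from 3.29 to 5.15. Neither ratio overlapped between the groups, and both follow from the single values already given.

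Enpep (ENSMUSG00000028024, chromosome 3, 129269175 to 129332720, minus strand) encodes aminopeptidase A, which trims angiotensin II to angiotensin III. Its kidney level was 135, 125, 123, 119 and 137 CPM with vehicle and 135, 129, 134, 149 and 128 CPM with oxaliplatin. The ranges overlapped in part, 3 of the vehicle mice lying below all oxaliplatin mice and oxaliplatin mouse 4 above all vehicle mice. The log2 fold change of 0.08 had a 95% interval from -0.06 to 0.22 and an adjusted p of 0.386 in edgeR, so a change of 1.5-fold lies outside the interval.

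Agtr1a (ENSMUSG00000049115, chromosome 13, 30336441 to 30382867, plus strand), the main angiotensin II receptor of mouse kidney and vessels, measured 40.1, 33.5, 33.4, 33.9 and 32.3 CPM in vehicle kidneys and 43.0, 37.3, 38.8, 33.9 and 37.4 CPM in oxaliplatin kidneys. The highest vehicle mouse was above 4 of the oxaliplatin mice. The log2 fold change was 0.13 (95% interval -0.03 to 0.30) with an adjusted p of 0.212 in edgeR. Agtr1b (ENSMUSG00000054988, chromosome 3, 20314473 to 20367177, minus strand), its close copy known from the adrenal gland, had 35 counts over the 5 vehicle mice and 32 over the 5 oxaliplatin mice, between 2 and 12 per library, and the exact two-sided permutation test of its CPM gave p = 0.548. Reads that match Agtr1a and Agtr1b equally would be lost from both, so the levels of this pair are uncertain. Agtr2 (ENSMUSG00000068122, chromosome X, 21484544 to 21489164, plus strand), the receptor prominent in fetal tissue, had 2 counts in 1 vehicle mouse and 6 counts in 2 oxaliplatin mice (exact permutation p = 0.722), and no difference was detectable at this depth.

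Mas1 (ENSMUSG00000068037, chromosome 17, 12841079 to 12868143, minus strand), the receptor of the shorter, vasodilating peptides, was read at 3.21, 1.79, 2.81, 1.53 and 1.66 CPM with vehicle and at 0.502, 1.95, 1.76, 1.16 and 0.570 CPM with oxaliplatin. Oxaliplatin mice 2 and 3 lay inside the vehicle range and the other 3 below it. The log2 fold change was -0.89 (SE 0.36) with an adjusted p of 0.0723 in edgeR. It passed the thresholds with DESeq2 (adjusted p = 0.0423), without the filter on low counts (0.0416), and in edgeR without oxaliplatin mouse 2 (-1.15, adjusted p = 0.0249) or mouse 3 (-1.07, 0.0440). Airn, a long RNA on the opposite strand, overlaps the Mas1 gene and had 137 to 296 counts per kidney library against 14 to 86 for Mas1. Strand use in the counting is not given in the sources used here. How reads from the stretch shared by the 2 genes were assigned or dropped is therefore not known.

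Atp6ap2 (ENSMUSG00000031007, chromosome X, 12587801 to 12617049, plus strand) encodes the prorenin receptor, also an accessory subunit of the vacuolar proton pump. Its kidney levels were 56.0, 61.9, 57.6, 52.3 and 55.4 CPM with vehicle and 60.5, 63.3, 61.9, 65.6 and 62.3 CPM with oxaliplatin. Only vehicle mouse 2 reached the oxaliplatin range. The log2 fold change was 0.15 (95% interval 0.02 to 0.28) with an adjusted p of 0.0833 in edgeR. The 13 other proton pump genes examined had 0 called in edgeR and 0 in DESeq2, while 7 were lower and 0 higher at an adjusted p under 0.05 in edgeR (8 and 0 at an unadjusted p under 0.05). Their median log2 fold change was -0.18, opposite in sign to Atp6ap2, and Atp6v1d, a subunit of the pump's stalk, had the lowest value at -0.39 (edgeR adjusted p = 2.2e-04).

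**Figure D2:**
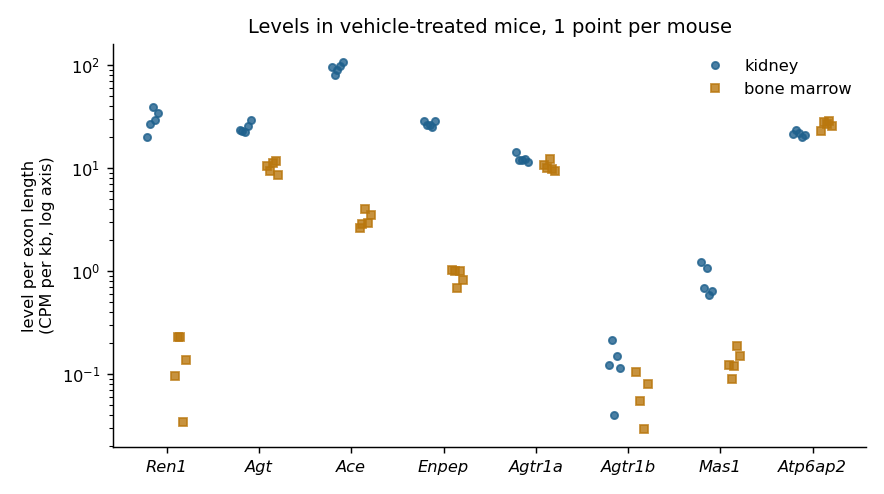
Level per kilobase of exon (vertical log axis, CPM per kb) of 8 members in the 5 vehicle kidneys (blue circles) and 5 vehicle marrows (orange squares), 1 point per mouse; values of 0 (1 marrow library of Agtr1b, and Agtr2, not drawn) have no place on a log axis. In kidney Ace stands highest, near 94.5 CPM per kb on average, and in marrow Atp6ap2, near 26.6 CPM per kb.

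Between genes, levels are compared per kilobase of exon. In vehicle kidneys the order was Ace (94.5 ± 10.1 CPM per kb), Ren1 (30.1 ± 7.44), Enpep (27.1 ± 1.65), Agt (24.9 ± 2.92), Atp6ap2 (21.6 ± 1.34), Agtr1a (12.4 ± 1.11), Mas1 (0.840 ± 0.289), Agtr1b (0.128 ± 0.0626) and Agtr2, at 0 in 4 of 5 libraries (SD, n = 5). In this order Ren1 overlapped Enpep, Enpep overlapped Agt and Agt overlapped Atp6ap2, whereas Ace, Agtr1a, Mas1 and Agtr1b stood clear of their neighbours. With oxaliplatin Ren1 led at 135 ± 35.6 CPM per kb, and Agt (32.4 ± 5.81), Enpep (28.7 ± 1.79) and Ace (28.5 ± 7.0) followed with overlapping ranges. In vehicle marrow Atp6ap2 led (26.6 ± 2.24 CPM per kb), ahead of Agtr1a (10.5 ± 1.1) and Agt (10.3 ± 1.36), whose ranges overlapped, then Ace (3.20 ± 0.569) and Enpep (0.905 ± 0.151). Ren1, Mas1 and Agtr1b were at or below 0.228 CPM per kb in every vehicle marrow library, with overlapping ranges. The tissues were scaled separately, so these levels are set side by side without a test.

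Among 18 genes that mark renin cells or act in the control of renin, 5 were called higher in kidney and 0 lower. Over all genes tested in kidney, 7.68% were called higher and 3.81% lower. The median log2 fold change of the list was 0.17 against 0.02 over all genes tested. The list was not divided into genes that raise and genes that lower renin. The largest change was that of Ptgs2, a prostaglandin synthase. It went from 0 to 6 counts per vehicle library to 16 to 30 per oxaliplatin library. The log2 fold change of 2.48 (SE 0.48, edgeR adjusted p = 0.00108) rests on few counts. Ptgs2 passed the filter on low counts only through the oxaliplatin libraries, where it was high. Its test and its call therefore add no support beyond the counts given. Gja5, the gap junction protein connexin 40 of renin cells and arterial endothelium, rose from 2.88 ± 0.326 to 5.48 ± 0.919 CPM (log2 fold change 0.93). Akr1b7, a marker of the renin cell (0.87), Adcy5, an adenylyl cyclase (0.80), and Npr1, the receptor of atrial natriuretic peptide (0.60), were the others called. Of the nuclear receptors on the list, Nr1h3, the oxysterol receptor LXR alpha (log2 fold change -0.48, edgeR adjusted p = 8.6e-04), and Vdr, the vitamin D receptor (-0.31, adjusted p = 0.00297), were lower but within 1.5-fold. Casr, the calcium-sensing receptor, was higher by 0.55 on the log2 scale (edgeR adjusted p = 9.2e-05), also within 1.5-fold. Hoxd10, a homeobox factor (0.10, adjusted p = 0.519), did not pass edgeR's test.

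The other peptidases and accessory proteins of the pathway numbered 17, of which 12 were tested in kidney. By edgeR and by DESeq2 alike 0 were called, while 3 were lower and 0 higher at an adjusted p under 0.05 in edgeR (5 and 0 at an unadjusted p under 0.05), with a median log2 fold change of -0.13. Prcp, a carboxypeptidase that degrades angiotensin II, fell from 63.1 ± 3.95 to 43.4 ± 4.55 CPM without overlap (log2 fold change -0.54, edgeR adjusted p = 8.6e-05). Anpep (-0.29) and Nln (-0.28), an aminopeptidase and an endopeptidase of angiotensins, were the others. Here and in the other lists, genes named although they were not called were chosen after their values were seen.

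Among 11 genes that take part in the response to aldosterone, the hormone downstream of angiotensin II, edgeR called 1 higher in kidney and 0 lower. DESeq2 called 1 higher and 1 lower, and the median log2 fold change was 0.16. Per1, also a clock gene, was the one called, at a log2 fold change of 0.83 (SE 0.27, edgeR adjusted p = 0.0465). Scnn1a, a subunit of the epithelial sodium channel, was higher by 0.42 (adjusted p = 0.00582), within 1.5-fold. Tsc22d3, which encodes the steroid-induced protein GILZ, measured 79.9 ± 14.1 CPM with vehicle and 50.7 ± 18.6 CPM with oxaliplatin, with a log2 fold change of -0.65 (adjusted p = 0.0983 in edgeR and 0.0357 in DESeq2, which called it lower). Sgk1, the kinase induced by aldosterone, varied widely, from 63.2 to 132 CPM with vehicle and from 78.6 to 255 CPM with oxaliplatin, with an adjusted p of 0.664 in edgeR. Of 6 adrenal cortex genes examined, the steroid enzymes Cyp11b1, Cyp11b2 and Cyp11a1 were at or under the floor in the kidney libraries. Nr5a1 had at most 4 counts. Mc2r, under the filter, had 0 to 4 counts per vehicle library and 6 to 20 per oxaliplatin library. Star measured 3.83 ± 0.868 CPM with vehicle and 5.16 ± 1.12 CPM with oxaliplatin (edgeR adjusted p = 0.0870). The summed level of the 6 was 2.88 to 4.88 CPM with vehicle and 4.52 to 7.26 CPM with oxaliplatin.

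**Figure D3:**
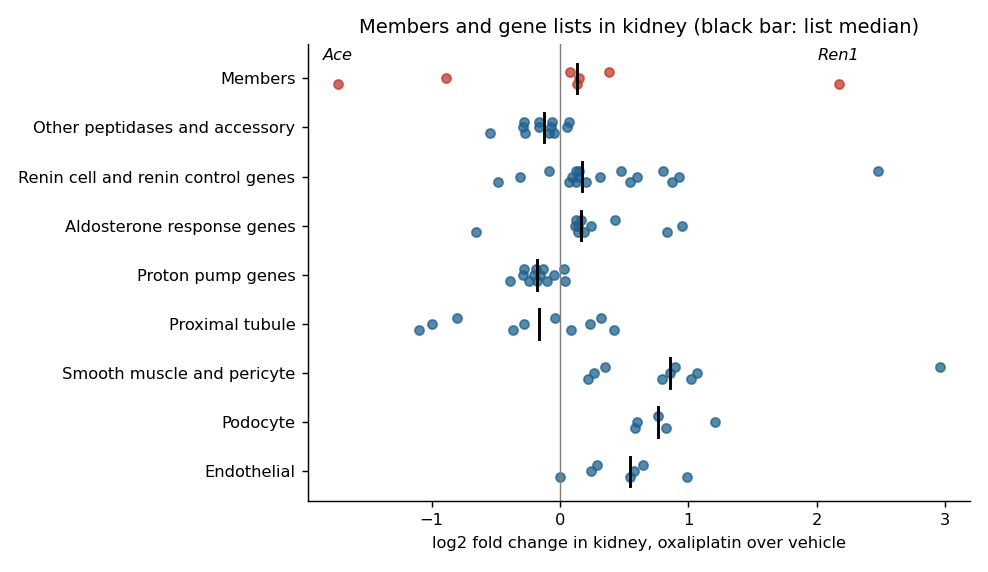
Log2 fold change in kidney, oxaliplatin over vehicle (horizontal axis), of each member tested (red) and of each tested gene of 8 lists (blue), 1 point per gene, with a black bar for the median of each row. Ren1 (2.17) and Ace (-1.73) are the outermost members, the medians of the pathway lists lie between -0.18 and 0.17, and those of the smooth muscle, podocyte and endothelial lists are 0.86, 0.76 and 0.55.

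In bone marrow a different pair of members was called. Agt rose and the receptor gene Agtr1a fell, so that 2 of the 6 members tested passed edgeR's test and the 1.5-fold limit, 1 in each direction, where 23.3% of all 22363 genes tested were called (11.6% higher and 11.8% lower). Those 2 members were also the ones tested that did not overlap between the groups, where 24.9% of all genes tested did not. They were the 2 of 6 that passed the adjusted p with the fold left aside, against 33.1% of all genes. Ren1, Agtr1b and Agtr2 were under the filter.

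**Figure D4:**
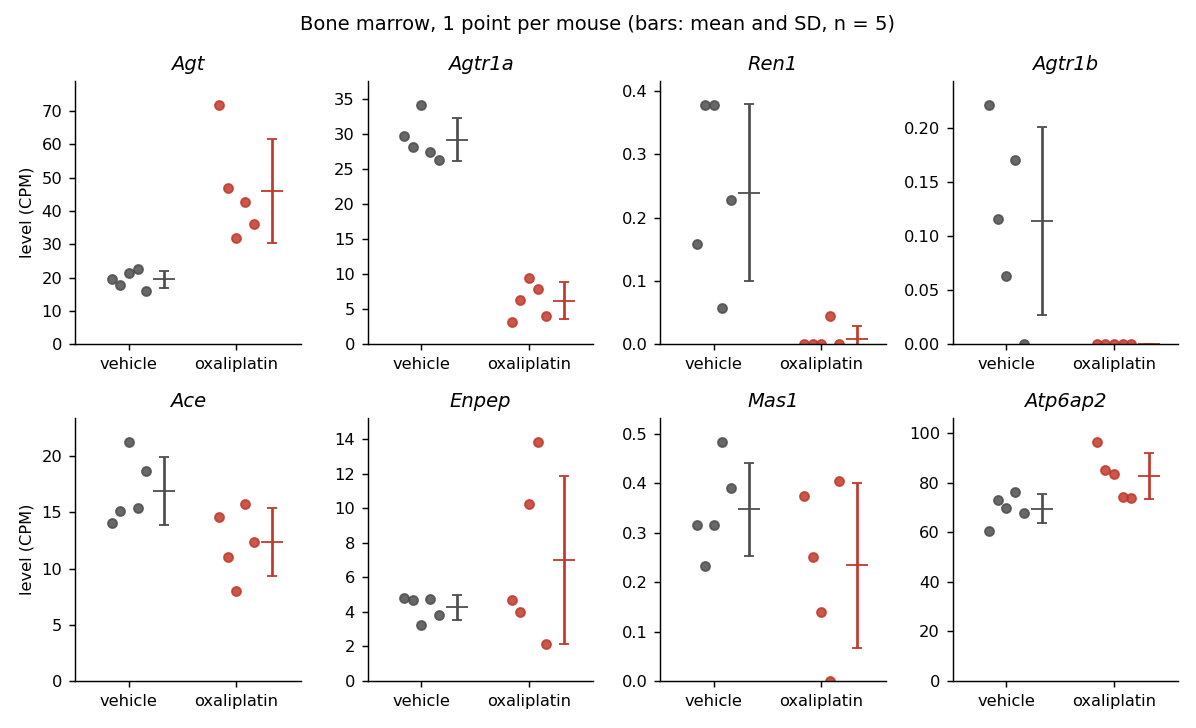
Level in CPM (vertical axis, from 0) of 8 members in each bone marrow library, with vehicle mice in grey and oxaliplatin mice in red, 1 point per mouse and bars for the mean and SD (n = 5); Agtr2, at 0 counts throughout, is not drawn. Agt is higher and Agtr1a lower in all oxaliplatin mice, the Ren1 and Agtr1b panels run only to 0.378 and 0.222 CPM, and Enpep is spread from 2.16 to 13.8 CPM with oxaliplatin.

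Agt, the substrate gene, stood at 19.7, 17.8, 21.3, 22.5 and 16.1 CPM in the vehicle marrows and at 71.8, 47.0, 31.9, 42.8 and 36.1 CPM in the oxaliplatin marrows. All 5 oxaliplatin values were above all vehicle values, with mouse 1 the highest. The means were 19.5 ± 2.58 CPM and 45.9 ± 15.6 CPM (SD, n = 5 each), a log2 fold change of 1.24 (SE 0.19, 95% interval 0.82 to 1.66), or 2.36-fold, with an adjusted p of 3.0e-04 in edgeR. It ranged from 1.02 to 1.34 when each mouse was left out. Fat genes were also higher in these marrows. All 7 adipocyte markers were called higher, with a median log2 fold change of 6.65. Their summed level was 77.1 to 144 CPM with vehicle and 497 to 2473 CPM with oxaliplatin. Lep, one of the 7, had 0 to 5 counts per vehicle library and passed the filter only through the oxaliplatin libraries. Of the 6 marrow stroma markers 1, Kitl, was called higher by edgeR, against 2 by DESeq2. Their part in the rise of Agt was not tested.

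Agtr1a, the angiotensin II receptor gene, stood at 29.8, 28.2, 34.2, 27.6 and 26.3 CPM in the vehicle marrows, and it measured 3.20, 6.30, 9.53, 7.92 and 4.07 CPM in the oxaliplatin marrows. The highest oxaliplatin mouse was well below the lowest vehicle mouse. The means were 29.2 ± 3.07 CPM and 6.20 ± 2.63 CPM (SD, n = 5 each), a log2 fold change of -2.23 (SE 0.25, 95% interval -2.78 to -1.68), or 4.69-fold lower, with an adjusted p of 2.6e-05 in edgeR and values between -2.44 and -2.06 without each mouse in turn. Gm48161, which lies on the same strand within the Agtr1a gene, had 14 to 48 counts per vehicle library and 5 to 18 per oxaliplatin library, few beside the 111 to 1086 of Agtr1a. The red cell gene Hba-a1 (log2 fold change -2.64), Aqp1, a water channel of red cells as well as of the tubule (-2.89), and the B cell gene Cd79a (-2.22) fell in the same libraries, whereas the neutrophil granule genes Elane (-0.18, edgeR adjusted p = 0.328) and Mpo (-0.07, adjusted p = 0.751) did not pass the test. The part of these cell markers in the fall of Agtr1a was not tested.

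Ren1 was close to the floor in marrow. It had 5, 13, 12, 2 and 7 counts in the vehicle libraries and 0, 0, 0, 2 and 0 in the oxaliplatin libraries, which do overlap in counts at 2 but not in CPM, where the lowest vehicle value was 0.0570 and the highest oxaliplatin value 0.0445. Summed over mice this was 39 counts against 2, a depth-scaled ratio of vehicle to oxaliplatin of 22.8 with a counting interval of 5.91 to 195, which treats counts as independent and is too narrow if they came in pairs, as the excess of even counts allows. The exact two-sided permutation test gave p = 0.00794, the smallest that dividing 10 mice into 5 and 5 can give. Of the 5 kidney markers, Umod, Slc12a1 and Aqp2 had 0 to 8 counts per marrow library and Slc34a1 3 to 22. Slc12a3 stood well above the floor, at 8.63 ± 1.84 CPM with vehicle and 1.29 ± 0.259 CPM with oxaliplatin, and the summed level of the 5 was 6.90 to 11.4 CPM and 1.1 to 2.0 CPM. The part of kidney RNA in these few renin counts was not tested.

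Agtr1b had 7, 4, 2, 6 and 0 counts in the vehicle marrows and 0 in each oxaliplatin marrow. With the floor of 3 counts put in for the whole oxaliplatin group, it was 7.42-fold lower after scaling for depth. This value leaves out the counting error of the 19 vehicle counts and any pairing of counts, so it is not a lower bound. The exact permutation test gave p = 0.0476, which became 0.0873 when any of oxaliplatin mice 1, 2, 3, 4 or 5 was left out. Agtr2 had 0 counts in all 10 marrow libraries, so its level was below 0.0978 CPM in each.

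Ace was moderate in marrow, at 14.0, 15.2, 21.3, 15.4 and 18.7 CPM with vehicle and 14.6, 11.1, 8.02, 15.8 and 12.4 CPM with oxaliplatin. The ranges overlapped, and the log2 fold change of -0.45 (95% interval -0.84 to -0.06) had an adjusted p of 0.0733 in edgeR. Atp6ap2 measured 60.7, 73.1, 70.0, 76.1 and 67.7 CPM with vehicle and 96.6, 85, 83.7, 74.2 and 73.9 CPM with oxaliplatin. Oxaliplatin mice 1 to 3 were above the vehicle range and mice 4 and 5 inside it, and the log2 fold change was 0.25 (95% interval 0.04 to 0.46) with an adjusted p of 0.0643 in edgeR.

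Enpep, the gene of aminopeptidase A, varied widely between the treated marrows. It was read at 4.81, 4.68, 3.21, 4.76 and 3.83 CPM with vehicle and at 4.70, 4.01, 10.3, 13.8 and 2.16 CPM with oxaliplatin. Oxaliplatin mice 3 and 4 stood above all others and mouse 5 below all others. The log2 fold change was 0.72 (95% interval -0.18 to 1.61) with an adjusted p of 0.209 in edgeR. It passed with the level of Y-linked genes as a covariate (1.32, adjusted p = 0.00336) and in edgeR without oxaliplatin mouse 5 (0.99, adjusted p = 0.0337), the mouse with the lowest Y-linked level. Without oxaliplatin mouse 4 it was 0.31 (adjusted p = 0.564 in edgeR), the lowest value with any mouse left out. Mas1 had 8 to 17 counts per vehicle library and 0 to 15 per oxaliplatin library, a log2 fold change of -0.60 with a 95% interval from -1.97 to 0.78, and Airn on the opposite strand had 85 to 295.

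**Figure D5:**
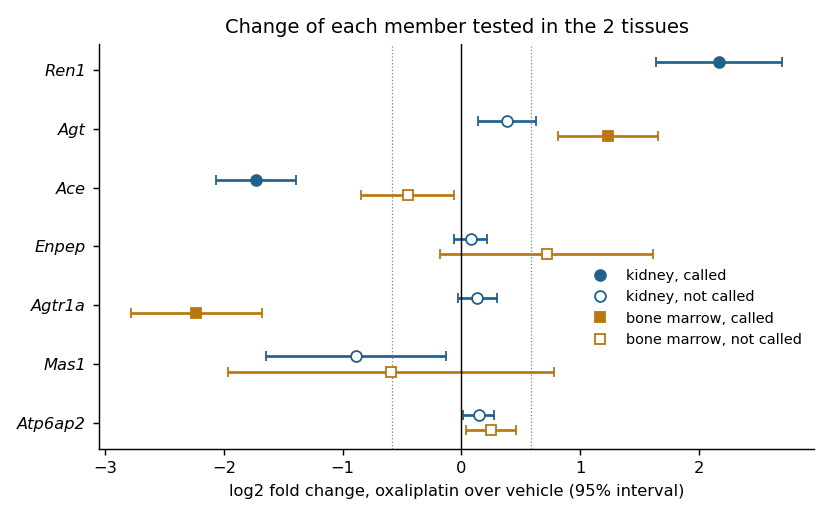
Log2 fold change of each member tested, oxaliplatin over vehicle (horizontal axis), with its 95% interval, for kidney (blue circles) and bone marrow (orange squares), filled where called; dotted lines mark 1.5-fold and Ren1, Agtr1b and Agtr2 are missing where they were under the filter. Ren1 and Ace are filled in kidney (2.17 and -1.73), Agt and Agtr1a in marrow (1.24 and -2.23).

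Whether a member changed differently in the 2 tissues was tested as an interaction in edgeR over all 20 libraries. By the same limits, 4 of 7 members tested were called, where 23.7% of all 24321 genes were. The change of Agtr1a was higher in kidney by 2.29 on the log2 scale (SE 0.28, adjusted p = 2.4e-06), and the change of Ace was lower in kidney by a difference of -1.33 (SE 0.24, adjusted p = 1.9e-04). The change of Agt was smaller in kidney, a difference of -0.91 (SE 0.23, adjusted p = 0.00384). Ren1 failed the filter in marrow and entered the joint fit through its kidney counts. Its fitted difference was 6.15 (SE 0.85, adjusted p = 1.1e-05 in edgeR). The size depends on how the marrow counts near 0 are treated, and the adjusted p and the call rest on those counts too. The difference ranged from 5.79 to 7.90 with each replicate number left out. The highest value came without oxaliplatin number 4 in both tissues, whose marrow was the only treated one with a Ren1 count. Enpep (-0.73, adjusted p = 0.235), Mas1 (-0.33, 0.786) and Atp6ap2 (-0.16, 0.303) did not pass.

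Of the 17 other peptidases and accessory proteins, 15 were tested in marrow, with 5 called higher, 1 lower and a median log2 fold change of 0.45 against -0.04 over all genes tested. Cma1 and Mcpt4, chymases of connective tissue mast cells that can form angiotensin II without Ace, had 0 to 2 counts per vehicle library. With oxaliplatin they had 20 to 260 and 20 to 262 counts per library. Both passed the filter on low counts only through the oxaliplatin libraries, so their calls add no support beyond these counts. Their log2 fold changes (7.39 and 6.46) depend on how counts near 0 are treated. Of 5 mast cell markers, Tpsb2 was called higher while Ms4a2 and Hdc were called lower, and their summed level was 102 to 147 CPM with vehicle and 65.7 to 99.3 CPM with oxaliplatin. Skeletal muscle markers were also higher in these marrows, 4 of 5 being called. Their summed level was 9.51 to 93.0 CPM with vehicle and 39.5 to 701 CPM with oxaliplatin. The part of tissue other than marrow in the marrow values was not tested. The endopeptidases Thop1 (0.77), Nln (0.77) and Mme (0.76) were also called higher, and the kallikrein Klk1 was called lower (-3.25), from 3.68 ± 1.24 to 0.395 ± 0.286 CPM.

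In the renin cell and renin control list 15 of 18 genes were tested in marrow, of which 3 were called higher and 0 lower by edgeR: Vdr (1.48), Adcy5 (1.24) and Gja5 (0.90), with a list median of 0.47. DESeq2 called 5 higher and 0 lower. For this and the other marrow lists, the share called by edgeR over all genes tested was 23.3% (11.6% higher and 11.8% lower). Vessel markers were higher in the same libraries, 4 of the 7 endothelial and 3 of the 9 smooth muscle and pericyte markers being called, with summed levels of 241 to 303 CPM against 311 to 601 CPM and of 129 to 151 CPM against 160 to 349 CPM. Their part in this list was not tested. Akr1b7, the renin cell marker, had 2 to 31 counts per vehicle library and 0 to 6 per oxaliplatin library and was under the filter. The change of Vdr was lower in kidney than in marrow by a difference of -1.84 (SE 0.19, adjusted p = 2.0e-07 in edgeR's interaction test). Of the 10 aldosterone response genes tested, 3 were called higher (Zbtb16 at 0.88, Sgk1 at 0.81 and Nr3c2, the mineralocorticoid receptor, at 0.62) and Slc12a3, the sodium chloride cotransporter that is also one of the kidney markers, lower (-2.73), with a median of 0.28. The 13 proton pump genes had 0 called in edgeR and 0 in DESeq2, with 5 higher and 1 lower at an adjusted p under 0.05 in edgeR (the same counts at an unadjusted p under 0.05), a median of 0.14.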

How the data were processed

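Bulk RNA was sequenced from 10 kidney and 10 bone marrow libraries, 5 per tissue and treatment, grouped by their labels. Members and gene lists were chosen with earlier results of these data known. The authors aligned reads with STAR to the Ensembl release of the mouse genome and deposited raw counts of uniquely aligned, unambiguous reads per gene; the submitters' processing notes also name featureCounts and Salmon. Library chemistry is described in the paper as SMARTer and in the labels as ribosomal RNA removal with random hexamers. Of the 55774 lines in each table, 287 repeats and 1 incomplete line were dropped. Positions and exon lengths came from GENCODE vM21, which holds 55141 of the identifiers.

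After a filter on low counts (filterByExpr, minimum 10) and TMM scaling, each tissue was tested with edgeR 4.0.16 (R 4.3.3; robust quasi-likelihood test, two-sided, treatment only, Benjamini-Hochberg over all genes tested). CPM are TMM-scaled. Members under the filter had an exact permutation test of CPM. Alternatives were DESeq2 1.42.0, its size factors, library size alone, no filter, hemoglobin genes left out, a Y-linked covariate, a replicate block and each mouse left out. The steps were tested on simulated data. All 9 members were named, and of each list up to 6 called genes by size; other list genes were named after their values were seen. The labels call the libraries of a group biological replicates. Some single genes of the lists are not reported here by name.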

Additional observations from a re-analysis of the deposited data

Results flagged for a closer look

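Each member's 5 values per group were checked for a mouse standing apart from the other 4, in 33 groups with any spread, and 3 were found. Chance alone flags about 1 in 20 groups of continuous values. That rate does not hold for a group with 4 values at 0, which is always flagged, as for Agtr2 and Ren1 here. Kidney vehicle mouse 1 was the highest of its group for Agtr1a, at 40.1 CPM. Kidney vehicle mouse 2 was the only vehicle kidney with any Agtr2 count, at 0.0762 CPM. Marrow oxaliplatin mouse 4 was the only treated marrow with any Ren1 count, at 0.0445 CPM. The change under treatment also differed between kidney and marrow, by edgeR's interaction test, for Ren1 (6.15 on the log2 scale, kidney minus marrow), Agt (-0.91), Ace (-1.33) and Agtr1a (2.29). Ren1 failed the filter in marrow and entered that test through its kidney counts.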

How the results depend on the processing

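Among the settings other than leaving out a mouse, 35 of 36 counts stayed within 1.5 times their value and 120 of 123 member values kept their direction and side of the threshold; the other 3 were Mas1 in kidney and Enpep in marrow as given above. The exception among the counts was marrow members called, which went from 2 to 4 with no filter on low counts, where Ren1 and Agtr1b enter the fit. With each mouse left out, members called ranged from 2 to 3 in kidney and in marrow and stayed at 4 for the interaction. Genes called then ranged from 1761 to 2424 in kidney (2216 with all mice), from 4725 to 5727 in marrow (5221) and from 4983 to 5927 for the interaction (5759). The interaction of Mas1, not called, ranged from -0.65 to 0.15 and changed sign without oxaliplatin mouse 1 (0.05) or 5 (0.15); the cause was not tested. Scaling by library size alone moved the median log2 fold change of all genes by 0.13 in kidney and 0.15 in marrow, and the share of higher calls from 66.8% to 82.7% and from 49.6% to 63.4%, with no member changing direction. Deviations of same-numbered libraries correlated between -0.15 and 0.23, and those of differently numbered libraries between -0.34 and 0.40. Such correlations cannot tell whether a kidney and a marrow library of the same number share a mouse. The main interaction test holds no term for mouse. With the number as a replicate block, 2017, 4968 and 5350 genes were called in kidney, marrow and the interaction, and Enpep in marrow, not called, was 0.44 (edgeR adjusted p = 0.440). Agtr1b and Agtr2 in both tissues and Ren1 in marrow are limited by depth.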
